A study of Drosophila melanogaster with 2 samples.

Results

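The 10 Wingless pathway genes wg, arm, pan, fz, fz2, fz3, nkd, Axn, Notum and sgg were examined for regions bound by Jim, a C2H2 zinc finger protein, in Drosophila melanogaster. The members were chosen by name, with earlier results of these data known. Every deposited region on the dm6 assembly was counted for a gene when its summit lay in the window of the gene. This window is the gene body and the 2 kb upstream of it. The members are 10 of 13945 annotated protein-coding genes. Their windows held 5 of the 1476 regions of the authors' list thresholded on the irreproducible discovery rate (IDR) and 126 of the 30000 regions of the pooled list from which that list was taken. By its deposited name the pooled list holds peaks and background as input for IDR. A region found only in the pooled list is therefore not shown to be a bound site.

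The data come from chromatin immunoprecipitation and sequencing of whole wandering larvae of the third instar, males and females pooled. Per the labels, the larvae came from a stable transgenic line whose Jim protein carries GFP at its C terminus, and the description names an antibody against GFP, while the antibody field names jim. The labels do not name the promoter of the transgene, and whole larvae mix all tissues, so a region cannot be assigned to a cell type. There is 1 group of 2 biological replicates, numbered 1 and 3 in the labels, and no group to compare it with, so the values below are descriptions and carry no test. Replicate 1 was sized at 175 to 275 bp and replicate 3 at 200 to 325 bp, per the labels, and the read depth is unknown. The jim window itself held 6 regions of the IDR list, and its best rank was 1 in replicate 1 and 2 in replicate 3.

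Wingless is the founding Wnt ligand of the fly. It binds Frizzled receptors together with the coreceptor Arrow, which stops a destruction complex built on Axin, with the kinase Shaggy (GSK3), from degrading the β-catenin Armadillo. Armadillo then enters the nucleus and joins the TCF factor Pangolin to switch on target genes. Several targets are feedback inhibitors, among them nkd, Notum and fz3. In larvae the pathway is known for patterning the wing and leg discs.

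Of the 10 genes, 4 held a summit of the IDR list: the receptor genes fz and fz2, and the feedback inhibitor genes nkd and Notum. Among all protein-coding genes 10.8% held one. The other 6 genes, which are the ligand gene wg, arm, pan, fz3, Axn and sgg, held only weaker regions. Of these, arm, fz3 and sgg lie on X, where 9.61% of the protein-coding genes held one. All 5 IDR regions lay on 3L, which carries fz, fz2, nkd and Notum and no other member. The share of protein-coding genes with an IDR summit was not computed for 3L. By signal the 5 regions had ranks from 379 to 1264 of 1476, where rank 1 is the strongest region. Since the IDR list holds the strongest regions of the pooled list, the ranks of these 5 are the same in both lists.

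The sequences below show the DNA at the 5 IDR regions and at the strongest region among the 6 other genes, which lies at a start of sgg. They were read from the RefSeq sequence of Release 6, which has the coordinates of dm6, and are written on the strand of the gene. For summits in introns the 50 bp to each side of the summit are given, and for summits in a first exon only the part of the called region before the transcript start. Capitals mark any match, on either strand, to GAGAG, the repeat bound by GAGA factor, or to 6 other preset sequences, of which none matched here.

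fz intron, chr3L:14304054-14304154, plus strand: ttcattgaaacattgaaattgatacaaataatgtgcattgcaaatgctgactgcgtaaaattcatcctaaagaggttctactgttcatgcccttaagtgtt
fz start, chr3L:14274261-14274342, plus strand: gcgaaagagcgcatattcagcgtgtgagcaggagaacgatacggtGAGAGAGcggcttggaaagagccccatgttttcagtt
fz2 start, chr3L:19170649-19170763, minus strand: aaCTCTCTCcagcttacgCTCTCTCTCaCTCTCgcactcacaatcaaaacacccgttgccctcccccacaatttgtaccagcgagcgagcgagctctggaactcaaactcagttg
nkd start, chr3L:19045450-19045570, minus strand: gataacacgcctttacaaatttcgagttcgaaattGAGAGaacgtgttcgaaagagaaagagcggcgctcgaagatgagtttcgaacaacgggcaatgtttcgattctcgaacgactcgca
Notum intron, chr3L:16026221-16026321, plus strand: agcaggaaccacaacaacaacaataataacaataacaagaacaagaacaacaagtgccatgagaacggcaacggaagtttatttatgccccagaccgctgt
sgg start, chrX:2646521-2646636, plus strand: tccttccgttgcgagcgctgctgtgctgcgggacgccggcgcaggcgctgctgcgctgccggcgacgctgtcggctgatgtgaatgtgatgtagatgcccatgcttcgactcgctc

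GAGAG or its complement stood before the starts of fz, fz2 and nkd. The bases shown before the sgg start held no full match, but a match was within 50 bp of the summit of that sgg region. Of all pooled summits, 15.3% had GAGAG or its complement that close. Over 19253 transcript starts of protein-coding genes, 12.6% held it in the 82 bases before the start, the length shown for fz, 17.2% in 115 bases and 17.9% in 121 bases. Counted over the whole called region it was in 4 of the 5 IDR regions, against 49.8% of all IDR regions and 32.5% of all pooled regions. The fz intron region had no match. The nearest match to the summit was 81 bp away for the fz start, 99 bp for fz2, 92 bp for nkd and 120 bp for Notum, so that none of the 5 held it within 50 bp, where 25.5% of all IDR summits did.

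CTTTGA, the core that TCF factors such as Pangolin recognise, was within 50 bp of 0 of the 5 IDR summits. It was at 9 of the 126 pooled summits in member windows (7.14%), against 5.72% of all pooled summits and 4.27% of all IDR summits. Of these 9, 3 lay in fz, 3 in fz2, 2 in nkd and 1 in sgg, and the strongest was an intronic region of fz2 at rank 2924. GCCGCC, which can accompany TCF sites as a helper sequence, was at 11 (8.73%), against 4.83% of all pooled summits. In 2 regions of nkd, at ranks 9411 and 27086, both sequences stood within 50 bp of the summit. AAAAAAAA was at 20 of the 126 (15.9%, against 8.03% of all pooled summits) and GAGAG at 26 (20.6%, against 15.3%). TGTTTAC was at 2 (1.59%, against 2.52%), CACACACA at 2 (1.59%, against 3.56%) and TATCGATA at 0 (against 0.8%). A match is a description of the letters and not evidence of binding by these factors.

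**Figure D1:**
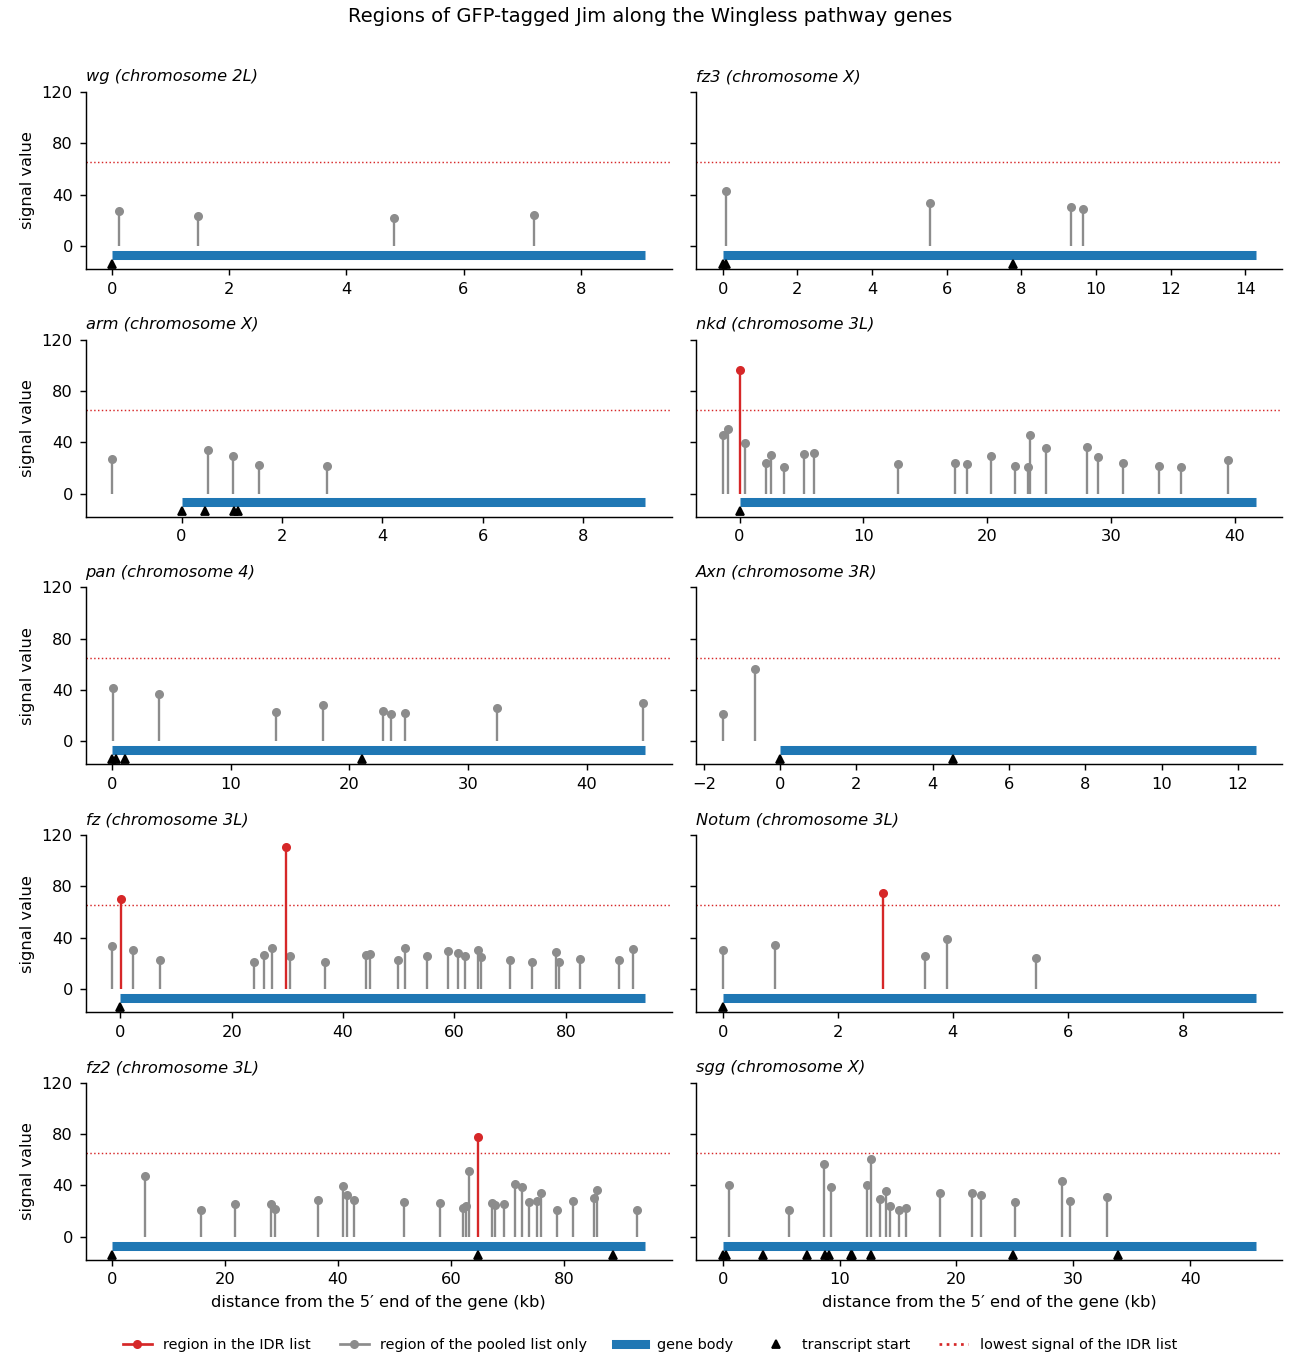
Regions of the pooled list along each gene, by distance of the summit from the 5′ end of the gene in kb (x axis) and deposited signal value (y axis). Red points are regions of the IDR list, grey points regions of the pooled list only, blue bars gene bodies, triangles transcript starts, and the dotted line is the lowest signal of the IDR list, 65.3. Only fz, fz2, nkd and Notum have red points, and the tallest is the fz intron region at 110.8.

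The receptor genes come first. fz encodes Frizzled, a receptor shared between Wingless signalling and planar cell polarity. The gene (FBgn0001085, 3L, 14274343 to 14368639, plus strand) is 94.3 kb long and held 27 pooled regions, 2 of them in the IDR list. The stronger lay at 14303974 to 14304233 in an intron, 29761 bp from the only fz start, with a pooled signal of 110.8 at rank 379. Its nearest start of any gene, that of lncRNA:CR45025 inside fz, was 22147 bp away. The summit stood in the region of rank 130 in replicate 3 (signal 83.2) and in the region of rank 2047 in replicate 1 (signal 30.3). This region was therefore far higher in the list of replicate 3 than in that of replicate 1.

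The other fz region, at 14274261 to 14274520, lay 48 bp inside the start from which both annotated transcripts begin, with a signal of 70.2 at rank 1264. Both replicates placed it at similar ranks, 1523 in replicate 1 (signal 34.2) and 1628 in replicate 3 (signal 33.4), just outside the strongest 1476 of each. Behind it the strongest pooled region of fz was upstream, 1483 bp from the start, at rank 7437 (signal 33.2). The other 24 had ranks from 8365 to 29703. In replicate 3 a region of rank 4543 had its summit 1 bp from the start of CG13482, a gene nested in fz.

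fz2 encodes Frizzled2, a high-affinity Wingless receptor that acts redundantly with Frizzled in canonical signalling. The gene (FBgn0016797, 3L, 19140975 to 19235373, minus strand) is 94.4 kb long and has 3 annotated starts. Its IDR region, at 19170504 to 19170763, lay 14 bp inside the start at 19170648, from which 5 of the 8 transcripts begin, with a signal of 78.1 at rank 949. It ranked 907 in replicate 1 (signal 41.5) and 1684 in replicate 3 (signal 32.9). No pooled region stood within 500 bp of the outermost start at 19235373 or of the innermost at 19146760. A second region 1534 bp before the middle start had rank 2435 (signal 51.5) in the pooled list, and an intronic region 543 bp from a start of lncRNA:CR43893 had rank 2924 (signal 47.7). With 28 regions in all, of which 10 had a region of both replicates at the summit, fz2 held the most of the 10 genes.

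fz3 encodes a Frizzled family member that is itself induced by Wingless and dampens the signal. The gene (FBgn0027343, X, 769945 to 784222, plus strand) held 4 pooled regions and 0 of the IDR list. The strongest, at 769898 to 770157, lay 2 bp from the start at 770026, with a signal of 42.5 at rank 3873. It ranked 1671 in replicate 3 (signal 33.0) and 5614 in replicate 1 (signal 19.9). The other 3 were intronic at ranks 7250 to 11040, and none stood at the start of the canonical transcript at 777734.

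Of the feedback inhibitors, nkd encodes Naked cuticle, which binds Dishevelled and limits Wingless signalling. The gene (FBgn0002945, 3L, 19003741 to 19045449, minus strand) is 41.7 kb long, and its 3 transcripts share 1 start. The IDR region at 19045311 to 19045570 lay 8 bp inside that start, with a signal of 96.5 at rank 553. It ranked 890 in replicate 1 (signal 41.8) and 362 in replicate 3 (signal 60.7), and was the only 1 of the 5 IDR regions within the strongest 1476 of both replicates. Another 2 pooled regions stood upstream, 948 bp from the start at rank 2612 (signal 50.0) and 1372 bp at rank 3303 (signal 45.3). The farther of them ranked 886 in replicate 1 (signal 42.0) and 22728 in replicate 3 (signal 13.7), so the replicates differed widely there. The strongest intronic region lay 23488 bp from the start at rank 3257 (signal 45.6). In all nkd held 23 pooled regions, the lowest at rank 29495.

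Notum encodes a secreted carboxylesterase that removes the lipid from Wingless and so inactivates it. The gene (FBgn0044028, 3L, 16023480 to 16032752, plus strand) is 9.27 kb long, the shortest gene with an IDR region here. The region, at 16026141 to 16026400, lay in an intron 2791 bp from the only Notum start, which was also the nearest start of any gene. Its signal was 74.8 at rank 1057. Replicate 1 gave it rank 1526 (signal 34.1) and replicate 3 rank 1473 (signal 35.0), close to the length of the IDR list in both. The other 5 pooled regions had ranks from 4794 to 18685, and the region 7 bp from the start had rank 10126.

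Of the destruction complex, sgg encodes the kinase that phosphorylates Armadillo for degradation. The gene (FBgn0003371, X, 2633952 to 2679553, plus strand) has 19 transcripts with 11 starts and held 18 pooled regions, 0 in the IDR list. Of the 11 starts, 5 had a pooled summit within 500 bp. The strongest region, at 2646521 to 2646780, lay 14 bp inside the start of the canonical transcript at 2646637, with a signal of 60.6 at rank 1726. Its summit stood in the region of rank 696 of replicate 1 (signal 46.0) and in no region of replicate 3. Replicate 3 instead had regions on both sides, at 2646170 to 2646429 with rank 1565 (signal 34.0) and at 2646671 to 2646930 with rank 2386 (signal 28.6). The second region of sgg, 113 bp before the start at 2642754, had rank 1987 (signal 56.8) in the pooled list, 2719 in replicate 1 (signal 26.6) and 5812 in replicate 3 (signal 21.1).

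Axn encodes Axin, the scaffold of the complex. The gene (FBgn0026597, 3R, 30022842 to 30035311, plus strand) held 2 pooled regions, both upstream and none at either of its 2 starts. The stronger, at 30022060 to 30022319, had a signal of 56.0 at rank 2062. It lay 652 bp from the nearest Axn start and 31 bp inside the start of Mgat2, an N-glycan processing enzyme gene that runs the other way (3R, 30015513 to 30022221, minus strand). The summit stood in the region of rank 2203 in replicate 1 (signal 29.3) and of rank 1445 in replicate 3 (signal 35.2). The other Axn region, at rank 26694, also had its summit inside Mgat2.

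The strongest region of the ligand gene wg was weaker by rank than that of every other member in the pooled list and in replicate 1, while in replicate 3 the best ranks of arm (7913) and pan (11023) were weaker. The gene (FBgn0284084, 2L, 7307159 to 7316265, plus strand) held 4 pooled regions, and the strongest, 115 bp inside the start, had a signal of 27.0 at rank 14062. It stood in the region of rank 12206 in replicate 1 (signal 15.2) and in none of replicate 3. In replicate 3 the best rank in the wg window was 6092 (signal 20.8), 7177 bp from the start. The IDR region nearest to the window was 23.5 kb away, at 7281521 to 7281780, with rank 1225 (signal 71.2), 4480 bp from a start of Wnt4. wg stands in a group of Wnt genes, and the 122.1 kb from Wnt4 to Wnt10 held this 1 IDR region, where the mean density of the 6 chromosome arms would place 1.35. The same span held 40 pooled regions, 1.46 times the 27.4 of the mean density (1.04 to 1.99), with 26 in replicate 1 (0.95 times) and 42 in replicate 3 (1.54 times).

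Both nuclear effectors lacked IDR regions. arm encodes Armadillo, which also serves in adherens junctions. The gene (FBgn0000117, X, 1891401 to 1900646, minus strand) held 5 pooled regions, and the strongest lay 56 bp inside the start at 1900173 with a signal of 33.9 at rank 7057. The summit stood in the region of rank 11775 in replicate 1 (signal 15.4) and in none of replicate 3. None of the 5 arm regions had a region of both replicates at the summit. A region 5 bp from the start at 1899610 had pooled rank 11137 (signal 29.1) and stood in the region of rank 3134 of replicate 1. pan encodes the TCF factor Pangolin. The gene (FBgn0085432, 4, 69326 to 114270, plus strand) is 44.9 kb long and held 9 pooled regions. The strongest lay 109 bp inside the outermost start with a signal of 41.6 at rank 4074, rank 6178 in replicate 1 (signal 19.2) and rank 11023 in replicate 3 (signal 17.4). Chromosome 4 carries 80 protein-coding genes in the annotation, and 0 of them held an IDR summit. This pan region was number 19 by signal among the 295 pooled regions of that chromosome, whose strongest had rank 1509.

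**Figure D2:**
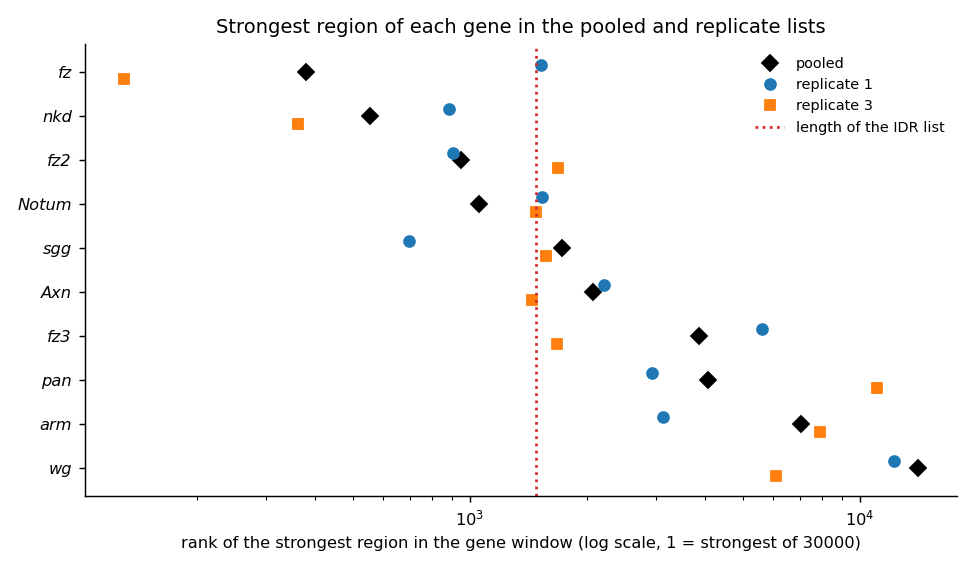
Rank of the strongest region in the window of each gene in the pooled list (diamonds), replicate 1 (circles) and replicate 3 (squares), on a log axis where 1 is the strongest of 30000. The dotted line is the length of the IDR list, 1476. Only nkd lies left of the line in both replicates, and wg has the lowest pooled position, at rank 14062.

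The replicates placed the genes in different orders. Among the strongest 1476 regions of replicate 1, summits fell in the windows of nkd, fz2 and sgg, and 11.0% of protein-coding genes held one. Among those of replicate 3 they fell in nkd, fz, Notum and Axn, and 10.6% of protein-coding genes held one. Only nkd was in both, as were 6.77% of protein-coding genes. Of the 5 IDR summits, 2 lay in a region of the strongest 1476 of replicate 1, 3 in one of replicate 3, 1 in both and 1 in neither. Over all 1476 IDR summits these shares were 70.7%, 74.1%, 50.1% and 5.22%. All 5 had a region of each whole replicate list at the summit, as did 1367 of all 1476 IDR summits. Of the 126 pooled summits, 38 did (30.2%), against 25.8% of all pooled summits.

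**Figure D3:**
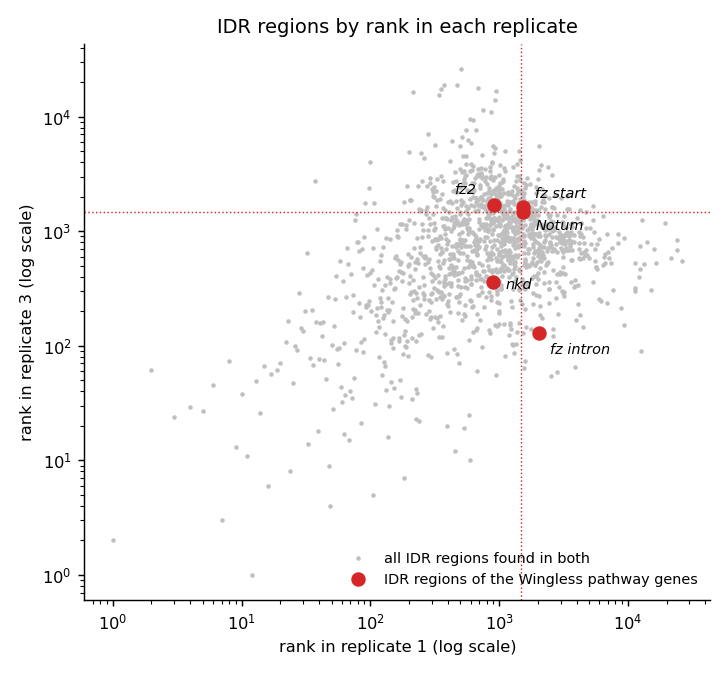
Rank in replicate 1 (x axis) and replicate 3 (y axis), both on log scales, of the 1367 IDR regions with a region of both replicates at the summit. Red points are the 5 regions of the Wingless pathway genes, and dotted lines mark rank 1476. The fz intron region ranks 130 in replicate 3 and 2047 in replicate 1, while nkd is inside both lines.

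A longer window has more room for a summit, and the 10 genes fall evenly on both sides of 20 kb. Of the 5 with windows of 20 kb or more, fz, fz2 and nkd held an IDR summit and pan and sgg did not, where 29.9% of 1143 protein-coding genes of that size held one. Of the 5 shorter ones Notum held one, where 9.05% of 12802 genes did. Member windows were 43.7 to 96.4 kb in the longer class and 11.1 to 16.3 kb in the shorter. Window size was not matched within either class, so these shares account for it only in part. Together the windows of the 10 genes covered 395.3 kb, in which the mean density of IDR regions over the 6 arms would place 4.36 summits. The 5 found were 1.15 times that number, with an exact 95% Poisson interval of 0.372 to 2.68 that covers counting error only. The windows of all protein-coding genes were at 1.25 times the mean density and those of 20 kb or more at 0.984 times. The number of IDR summits found in the Wingless pathway genes was thus near the number at the mean density. With only 5 summits the interval also takes in densities well below and well above the mean.

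Pooled regions were denser. The 126 were 1.42 times the 88.6 that the mean density would place (1.18 to 1.69), while the windows of all protein-coding genes were at 1.11 times and those of 20 kb or more at 1.04 times. Since the pooled list includes background, this is a density of listed regions and not of bound sites. Of the 126 summits, 18 (14.3%) stood in a region of neither replicate, against 17.2% of all pooled summits. Replicate 1 gave 133 regions, 1.5 times, and replicate 3 gave 113, 1.28 times. All 10 genes held at least 1 pooled region, where 67.1% of protein-coding genes did. By window size, 1132 of 1143 protein-coding genes with windows of 20 kb or more held one, and 8223 of 12802 with shorter windows. For the 5 longer members a pooled region was thus near certain from size alone. The median of the best pooled rank was 1894 over the 10 genes and 7182 over the 9355 protein-coding genes with a pooled region. Among windows of 20 kb or more it was 949.0 for the 5 members and 3453 for 1132 genes, and among shorter ones 3873 and 7964. Window size was not matched within these classes either.

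At transcript starts, 3 of the 10 genes, fz, fz2 and nkd, had an IDR summit within 500 bp, where 6.96% of protein-coding genes did. In the strongest 1476 regions of replicate 3 alone this was 1 gene, nkd, since the regions at fz and fz2 had ranks 1628 and 1684 there. A pooled summit within 500 bp was found for 9 of the 10, all but Axn, where 42.8% of protein-coding genes had one. This share was not split by window size. Counted by start, 17 of the 31 starts of the 10 genes had a pooled summit that close, where 41.5% of the 19253 starts of protein-coding genes had one. An IDR summit was at 3 of the 31, against 6.15% of those starts. Most pooled regions lay elsewhere, as 17 of the 126 summits (13.5%) were within 500 bp of an own start. By gene structure, 102 were intronic (81.0%), 12 in 5′ untranslated exons, 6 upstream, 4 in coding sequence and 2 in 3′ untranslated exons. Intronic means inside the gene but outside its own exons, so such a summit can be near a start. The intronic share of all pooled summits was not computed. A start of any gene stood within 500 bp of 20 of the 126 (15.9%), against 24.9% of all pooled summits and 56.6% of all IDR summits.

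A wider list of 52 pathway genes was read in the same windows, and 17 of them (32.7%) held an IDR summit. Of 20 with windows of 20 kb or more 9 did (45.0%), and of 32 shorter ones 8 did, so both classes stood above the 29.9% and 9.05% of protein-coding genes. The list was written with earlier results of these data known, window size was not matched within a class, and no test of the list was made. None of the 6 other Wnt ligand genes held one, and 2 of these have windows of 20 kb or more. Of 6 genes for secretion and spread 2 did, the glypican genes dlp (rank 871, signal 80.6, 2287 bp from its start) and dally (rank 1089, signal 74.1, 3 bp). Both are among the 3 of these genes with windows of 20 kb or more. Of 7 further receptor and coreceptor genes 1 did, fz4, a Frizzled family member, at rank 611 (signal 93.2, 318 bp from its start). It is 1 of the 2 with windows under 20 kb, and none of the 5 with longer windows held one. The coreceptor gene arr held 18 pooled regions, the best at rank 4878.

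Of 8 further cytoplasmic genes 4 held an IDR summit, 3 of the 7 with windows under 20 kb and the 1 with a longer window. They were led by the casein kinase gene gish at rank 299 (signal 119.7, 1354 bp from its start), whose window is the longer one. By contrast dsh, the gene of the adaptor Dishevelled, held no pooled region. Among 10 nuclear genes 5 did, with 14 summits in all: 3 of 3 with windows of 20 kb or more, and 2 of 7 shorter ones. The strongest were nej, the CBP acetyltransferase gene, at rank 102 (signal 168.1, 1367 bp from its start), skd, a Mediator subunit gene, at rank 171 (signal 141.4), and osa, a Brahma complex subunit gene, at rank 348 (signal 114.0). The skd region was 565 bp from a skd start and 84 bp from a start of Pdss2. The osa region was intronic, 13952 bp from an osa start and 703 bp from a start of lncRNA:CR46035. The dedicated cofactor genes lgs and pygo, which tie Armadillo to transcription, had none. Of these, lgs lies on chromosome 4, where 0 of 80 genes held one, and pygo held no pooled region.

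The wider list names 15 genes as targets in the wing, leg, notum or gut, without the direction of their response to Wingless. Of these 15, 5 held an IDR summit, 3 of 6 with windows of 20 kb or more and 2 of 9 shorter ones. These were bi (rank 18, signal 283.2), a T-box gene of the wing, Myc (rank 403, signal 108.5), a growth regulator gene, hth (rank 876, signal 80.5), a homeobox gene, stg (rank 922, signal 79.1), the Cdc25 phosphatase gene, and sens (rank 965, signal 77.7), a zinc finger gene of sense organ precursors. The bi and sens regions lay 241 and 117 bp from an own start. The stg region lay 523 bp from a stg start and 162 bp from a start of CG45544. The hth region was intronic, 74418 bp from an hth start. The Myc region was in a 3′ untranslated exon, 17122 bp from a Myc start. The wing and leg genes vg, Dll and dpp had none, with best pooled ranks of 4362, 9021 and 2826.

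**Figure D4:**
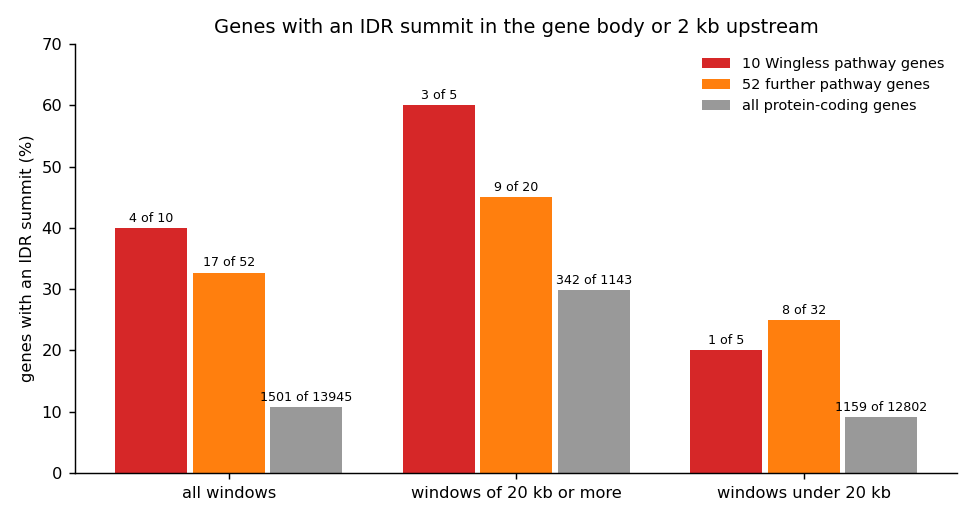
Share of genes with an IDR summit in the gene body or 2 kb upstream (y axis, percent from 0), for the 10 Wingless pathway genes, the 52 further pathway genes and all protein-coding genes, over all windows and by window size. Labels give the number of genes. In windows of 20 kb or more, 3 of 5 members held one, against 342 of 1143 protein-coding genes.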

How the data were processed

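The deposited files are narrowPeak lists, and only the 4 lists on dm6 were used. Per the text notes deposited with them, the inputs were 1 alignment for each replicate list, both alignments for the pooled list, and these 3 lists for the IDR list; each of the first 3 also used a further file, which the notes do not describe. No aligner, caller or IDR threshold is stated there or in the labels. The deposited signal value is on the scale of the authors' caller, which differs between lists, so it was ranked only within a list. The called regions have mostly 1 width, with a median of 260 bp in the pooled list and of 210 bp in replicate 1, and 99.8% of pooled summits are at the middle. The summit is the region's start plus the peak offset. Genes and starts came from Ensembl 115 (BDGP 6.54), transposable elements left out, on 6 arms of 133.9 Mb, and 1 region elsewhere was not used. All 10 members and all 52 further genes matched, 2 of these by letter case. Background shares are over 13945 protein-coding genes. Poisson intervals are exact at 95%. The members and lists were chosen with earlier results of these data known. For each member every IDR region and the strongest other pooled region are named, and for the wider list the 12 strongest genes. Counting was tested on simulated summits. Software was matplotlib 3.10.9, scipy 1.17.1, pandas 2.3.3 and numpy 2.4.6 under Python 3.11.15.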

Additional observations from a re-analysis of the deposited data

How the results depend on the processing

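The same 4 genes held an IDR summit with 0 bp or 5000 bp upstream and with any overlap of the region. Of all protein-coding genes, 783 (5.61%) held one with 0 bp, 1948 (14%) with 5000 bp and 1531 (11%) with any overlap. In the stronger 738 of the IDR list 2 members (fz, nkd) with 2 summits, 7 wider genes and 820 protein-coding genes (5.88%) remained. At an own start 1 member remained, against 3.43% of protein-coding genes. With the 2952 strongest pooled regions Axn and sgg were added, with 11 summits in member windows, and 2568 protein-coding genes (18.4%) held one. With 1 replicate left out, the strongest 1476 regions of the other stood in for the IDR list, with 4 summits in member windows each time. Without replicate 1 they fell in 4 members (fz, nkd, Axn, Notum), 17 wider genes and 1484 protein-coding genes (10.6%). Without replicate 3 they fell in 3 members (fz2, nkd, sgg), 14 wider genes and 1529 protein-coding genes (11%), so only nkd was in both. At an own start there was 1 member without replicate 1 (against 6.53% of protein-coding genes) and 3 without replicate 3 (against 7.15%). CTTTGA was at 3 member summits within 25 bp and at 19 within 100 bp (2.38% and 15.1%, against 2.91% and 11.6% of all pooled summits). No paired analysis was possible because there is 1 group. The read depth is unknown, so a gene without a region is not shown to be unbound.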
